A study of Mus musculus with 6 samples.

Results

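The genes of the insulin-like growth factor (IGF) ligands, their binding proteins, the IGF2 receptor and the protease PAPP-A were followed in mouse ovarian granulosa cells. The cells came from mice labelled as a Foxo1 and Foxo3 knockout and from wild type. The 10 genes Igf1, Igf2, Igf2r, Igfbp2, Igfbp3, Igfbp4, Igfbp5, Igfbp6, Igfbp7 and Pappa were taken by name, and every probe set annotated to 1 of them alone was kept, which gave 26 of the 45037 probe sets and 10 of the 18193 genes on the arrays. Granulosa cells, which surround and feed the oocyte, were compared in 3 groups of 2 arrays each. The knockout at 2 months and the knockout at day 25 of age are both labelled Foxo1 f/-;Foxo3 f/-; Amhr2-cre and are called dKO here. The third group was wild type at day 25. All mice were of a mixed FVB and C57BL/6 background. The Cre recombinase is expressed from the Amhr2 locus, which is active in granulosa cells but not in them alone, and the wild type is not labelled as carrying it. The labels do not say whether cells of several animals were pooled, and wild type at 2 months was not analysed here, so age and loss of FOXO cannot be told apart when dKO cells at 2 months are set against wild type.

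IGF1 and IGF2 are secreted growth factors that signal through the IGF1 receptor to PI3K, the kinase whose pathway keeps FOXO factors out of the nucleus. The binding proteins IGFBP2 to IGFBP6 hold the ligands in the extracellular space with high affinity and decide how much reaches the receptor, while IGFBP7 binds them weakly. PAPP-A, a secreted metalloprotease, cuts IGFBP4 and so frees the ligand, and in the ovary IGF1 is known to work together with FSH in follicle growth.

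Deposited values are intensities on a linear scale, and a log2 difference is that of log2(value + 1). Where a gene had several probe sets, the one with the highest mean over the arrays stands for it. Differences between groups are taken only within a probe set, while dim and bright describe raw intensity and not RNA amount. Summed intensities of marker lists add different probe sets, so the brightest weigh most. Array medians were 73 or 74, with upper quartiles of 370 to 383. The dKO 2-month replicate 1 stood apart, with r from 0.964 to 0.978 against the other arrays, which had r from 0.982 to 0.992 among themselves. Foxo1 was 126 and 343 on the dKO 2-month arrays, 904 and 2291 on the dKO day 25 arrays and 10319 and 7666 on the wild-type arrays, so the labels hold for this gene. Foxo3 was 2484 and 1872, 2539 and 3279, and 1632 and 1342 in the same order, and whether its probe set lies in the deleted part is not stated, so it checks nothing. Between the dKO ages Foxo1 had a log2 difference of -2.78 ± 0.65 (SE), lower at 2 months without overlap. Age and the lower Foxo1 level therefore cannot be told apart when dKO at 2 months is set against dKO at day 25. The granulosa marker Foxl2 was bright on all arrays, between 6165 and 13167. At an adjusted p of 0.05 limma called 0% of probe sets in each of the 3 comparisons, although an unadjusted p under 0.05 was reached by 5900 probe sets when dKO at 2 months was set against wild type, by 2514 between the ages of the dKO, and by 3668 when dKO at day 25 was set against wild type. The smallest adjusted p was 0.114, 0.712 and 0.367 in that order. No member passed the test in any comparison, and with 2 arrays a side an exact permutation test has a smallest two-sided p of 0.333. The values below are therefore read by their size, their overlap between groups and their spread.

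**Figure D1:**
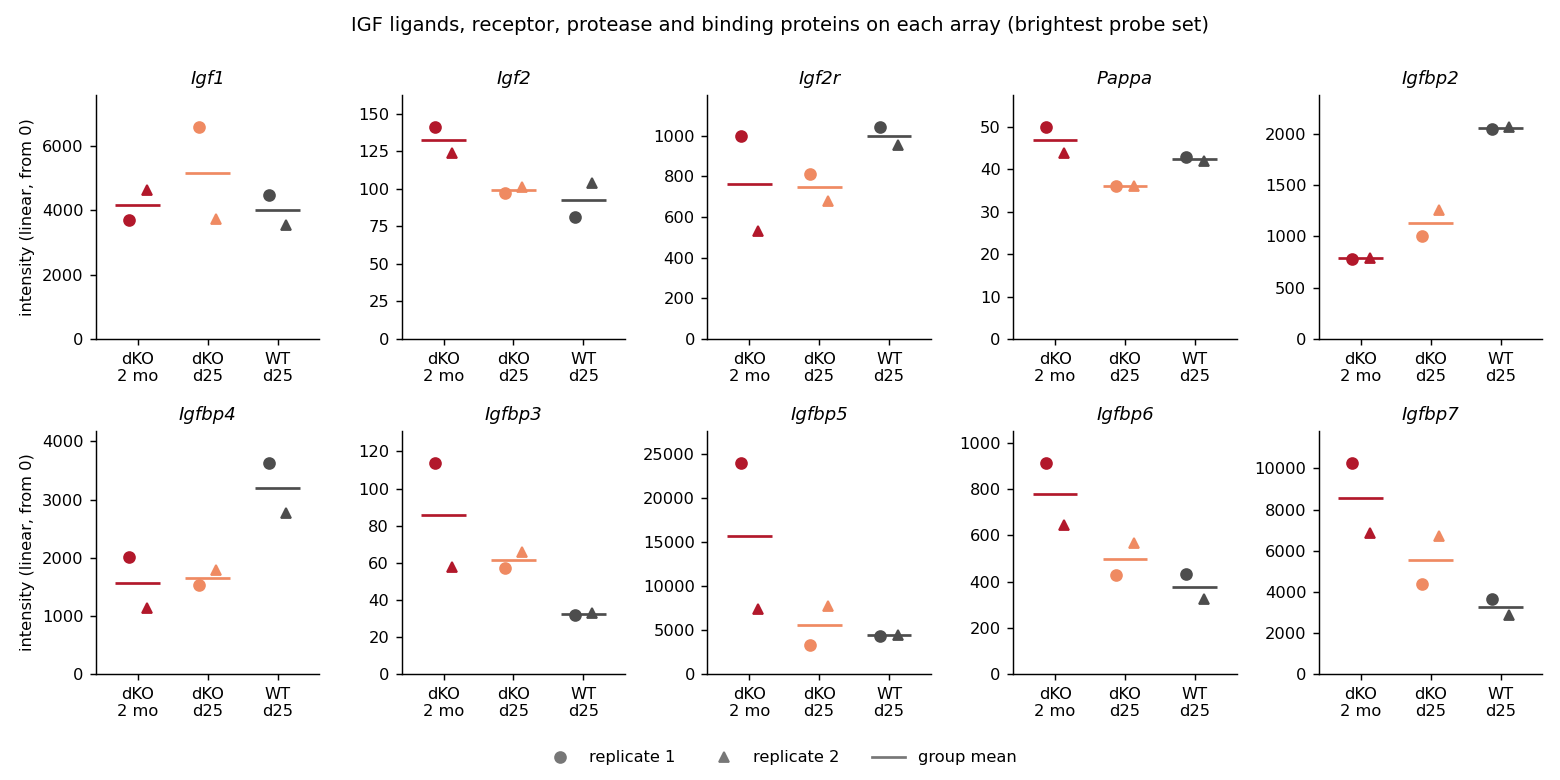
Intensity on a linear axis from 0 for the brightest probe set of each of the 10 genes, with circles for replicate 1, triangles for replicate 2 and a bar for the mean of each group (dKO 2 months, dKO day 25, wild type day 25). Igfbp2 and Igfbp4 lie lower on all 4 dKO arrays than on both wild-type arrays, Igfbp3 and Igfbp7 lie higher on all 4, and Igfbp5 stands out on 1 array at 24056.

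At both ages Igfbp2 and Igfbp4 were lower in dKO cells than in wild type without overlap of the arrays, and Igfbp3 and Igfbp7 were higher without overlap. Of all genes, 19.5% were lower and 26.4% higher without overlap at day 25, and 17.3% and 26.6% at 2 months. The share of genes apart in the same direction at both ages was not counted. The sequences before the start of Igfbp2, Igfbp4 and Igfbp7 are shown because these 3 genes differ in direction. They are the 250 bases before the RefSeq transcript start in GRCm38.p6, written 5′ to 3′. Igfbp2 is at chr1:72824230-72824479 on the plus strand, Igfbp4 at chr11:99040994-99041243 on the plus strand and Igfbp7 at chr5:77408046-77408295 on the minus strand. Capitals mark the GC box CCGCCC or its reverse complement GGGCGG and the TATA box motif TATAAA.
Igfbp2: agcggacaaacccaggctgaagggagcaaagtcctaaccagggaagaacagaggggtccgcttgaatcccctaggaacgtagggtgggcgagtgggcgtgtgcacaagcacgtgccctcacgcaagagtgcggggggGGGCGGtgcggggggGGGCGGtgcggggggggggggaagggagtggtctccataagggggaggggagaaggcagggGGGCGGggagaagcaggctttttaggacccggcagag
Igfbp4: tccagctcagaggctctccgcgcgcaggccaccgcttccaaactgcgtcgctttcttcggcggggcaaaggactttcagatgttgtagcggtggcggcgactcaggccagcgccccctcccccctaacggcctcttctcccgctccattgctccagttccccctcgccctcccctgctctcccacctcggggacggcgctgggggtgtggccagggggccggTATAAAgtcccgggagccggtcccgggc
Igfbp7: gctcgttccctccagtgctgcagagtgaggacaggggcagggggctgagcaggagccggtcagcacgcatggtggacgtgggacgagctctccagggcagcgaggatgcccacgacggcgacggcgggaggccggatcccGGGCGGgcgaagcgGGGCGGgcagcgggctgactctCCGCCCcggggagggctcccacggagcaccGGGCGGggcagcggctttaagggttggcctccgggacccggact
This Igfbp2 window held 3 GC boxes and no TATAAA, and the Igfbp7 window held 4 GC boxes and no TATAAA. RefSeq has a second Igfbp2 start, not printed, whose window held 0 GC boxes and 2 copies of the core TGTTT. Igfbp4 had no GC box and 1 TATAAA, whose first base is base 223 of the window. Of all 32851 promoter windows of this length, 32.74% held a GC box and 12.37% held TATAAA, on either strand. RefSeq gave 13 windows for 9 of the 10 genes, with none for Pappa, and of these 5 held a GC box and 2 held TATAAA. The forkhead motif TGTTTAC and the insulin response motif CAAAACA, read on both strands, were in 0 of these 13 windows, against 3.17% and 5.56% of all windows. The shorter core TGTTT, which overlaps both motifs, was in 4 of the 13 and in 46.4% of all. These letters were searched in these windows only, which says nothing of FOXO binding elsewhere. Median GC content was 66% in the 13 windows and 52.4% in all.

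The ligand Igf1 did not separate the groups. Its brightest probe set read 3700 and 4619 on the dKO 2-month arrays, 6589 and 3720 on the dKO day 25 arrays, and 4468 and 3531 on the wild-type arrays. Replicate 1 of dKO at day 25 was the high array, and the other 5 lay close together. The log2 difference of dKO at day 25 from wild type was 0.32 ± 0.32 (SE), with a 95% interval from -0.50 to 1.14. Without dKO day 25 replicate 1 it was -0.09, and without replicate 2 it was 0.73, so its sign rests on 1 array. All 4 Igf1 probe sets overlapped between groups in all 3 comparisons, and the same array was the highest on each of them. The 2-month knockout differed from wild type by 0.06 ± 0.32 (SE) on the log2 scale, with an interval from -0.76 to 0.88, which covers differences in either direction.

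Igf2, the fetal growth ligand that is silenced on the maternal allele in mouse, was dim throughout. It read 141 and 124 on the dKO 2-month arrays, 97 and 101 on the dKO day 25 arrays, and 81 and 104 on the wild-type arrays. Both 2-month arrays lay above the other 4, while the dKO day 25 and wild-type arrays overlapped. At 2 months the dKO exceeded dKO at day 25 by 0.41 ± 0.16 (SE) on the log2 scale (adjusted p = 0.712) and exceeded wild type by 0.52 ± 0.16 (adjusted p = 0.329). The second Igf2 probe set lay between 13 and 17 on every array, close to the lowest intensity of 6 or 7 on the arrays.

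Igf2r, which carries IGF2 to the lysosome for breakdown, had low dKO values with a wide spread at 2 months. It read 996 and 533 on the dKO 2-month arrays, 811 and 681 on the dKO day 25 arrays, and 1042 and 955 on the wild-type arrays. Both day 25 dKO arrays were below both wild-type arrays, whereas at 2 months 1 array lay within the wild-type range and the other far below it. Against wild type, Igf2r had a log2 difference of -0.45 ± 0.32 (SE, adjusted p = 0.560) in dKO at 2 months and of -0.42 ± 0.32 (adjusted p = 0.752) in dKO at day 25. Without dKO 2-month replicate 2 the difference from wild type at 2 months was -0.0022, and without replicate 1 it was -0.90. The other Igf2r probe set read 510 and 436 in dKO at 2 months, 491 and 428 in dKO at day 25, and 492 and 544 in wild type. Its log2 differences from wild type were smaller, at -0.13 ± 0.14 (SE) for the 2-month and -0.17 ± 0.14 for the day 25 knockout.

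Pappa was the dimmest member. Its brightest probe set read 50 and 44 on the dKO 2-month arrays, 36 and 36 on the dKO day 25 arrays, and 43 and 42 on the wild-type arrays. The dKO day 25 arrays were the low ones and the 2-month arrays the high ones, with no overlap in any comparison, but the whole range was only 36 to 50. The log2 difference between dKO at 2 months and dKO at day 25 was 0.37 ± 0.10 (SE), adjusted p = 0.712. A second Pappa probe set, between 13 and 27, was lower in dKO at both ages, and the third stayed between 13 and 15. The 2 brighter probe sets thus differ in sign at 2 months against wild type, with 0.14 and -0.34 on the log2 scale.

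Igfbp2, the binding protein with an integrin-binding motif, was lowest in dKO at 2 months, intermediate in dKO at day 25 and highest in wild type. It read 781 and 792 on the dKO 2-month arrays, 1003 and 1255 on the dKO day 25 arrays, and 2046 and 2064 on the wild-type arrays. No group overlapped another, and the replicates of dKO at 2 months and of wild type differed by 1.01-fold each. The mean was 786.5 ± 7.78 in dKO at 2 months, 1129 ± 178 in dKO at day 25 and 2055 ± 12.7 in wild type (SD, n = 2 each). The level was 1.83-fold lower in dKO at day 25 than in wild type, a log2 difference of -0.87 ± 0.14 (SE), adjusted p = 0.461, and 2.61-fold lower in dKO at 2 months than in wild type, -1.38 ± 0.14, adjusted p = 0.139. Between the dKO ages it was -0.51 ± 0.14 (adjusted p = 0.712). With any 1 array left out, the value stayed between -1.03 and -0.71 at day 25 and between -1.39 and -1.37 at 2 months against wild type. Of all genes, 2.23% had this order of the 3 groups without overlap and 4.22% had the opposite order, and the members held 1 of each, Igfbp2 and Igfbp7. Igfbp2 has only 1 probe set here, so no second one could be set beside it.

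Igfbp4, the binding protein that PAPP-A cuts, was lower in dKO at both ages, with about the same level at both. Its brightest probe set read 2013 and 1141 on the dKO 2-month arrays, 1531 and 1790 on the dKO day 25 arrays, and 3639 and 2770 on the wild-type arrays. Each of the 4 dKO values was under both wild-type values, and the day 25 knockout lay inside the range of the 2-month knockout. The level was 1.92-fold lower in dKO at day 25 than in wild type, a log2 difference of -0.94 ± 0.31 (SE), adjusted p = 0.577, and 2.09-fold lower in dKO at 2 months, -1.07 ± 0.31, adjusted p = 0.323. Without dKO 2-month replicate 1 the 2-month difference was -1.48, and without replicate 2 it was -0.66. Between the dKO ages the difference was -0.13 ± 0.31, with a 95% interval from -0.94 to 0.69. Igfbp4 has 6 probe sets, which share 1 RNA and so are not replicates. On all 6 the dKO arrays of each age lay below the wild-type arrays, with log2 differences from -1.01 to -0.30 at day 25 and from -1.12 to -0.15 at 2 months. The smallest differences belong to the dimmest of the 6, whose mean was 96.0. In each of these 2 comparisons 5 of the 6 had an unadjusted p under 0.05.

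The granulosa marker list had a narrow range over these arrays. Its median log2 deviation from the mean of the arrays lay between -0.13 and 0.21 over 10 measured markers, and its summed intensity was 122440 and 106783 in dKO at 2 months, 122476 and 111295 in dKO at day 25, and 102355 and 115193 in wild type. Its defining marker Foxl2 was higher on both dKO 2-month arrays, at 13167 and 8826, than on the dKO day 25 arrays, at 6317 and 7761, and the wild-type arrays, at 6165 and 6783. The part of this in the Igfbp2 and Igfbp4 values was not tested. As these are bulk RNA samples, a lower Igfbp2 or Igfbp4 intensity from fewer expressing cells cannot be told apart from less RNA per cell.

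**Figure D2:**
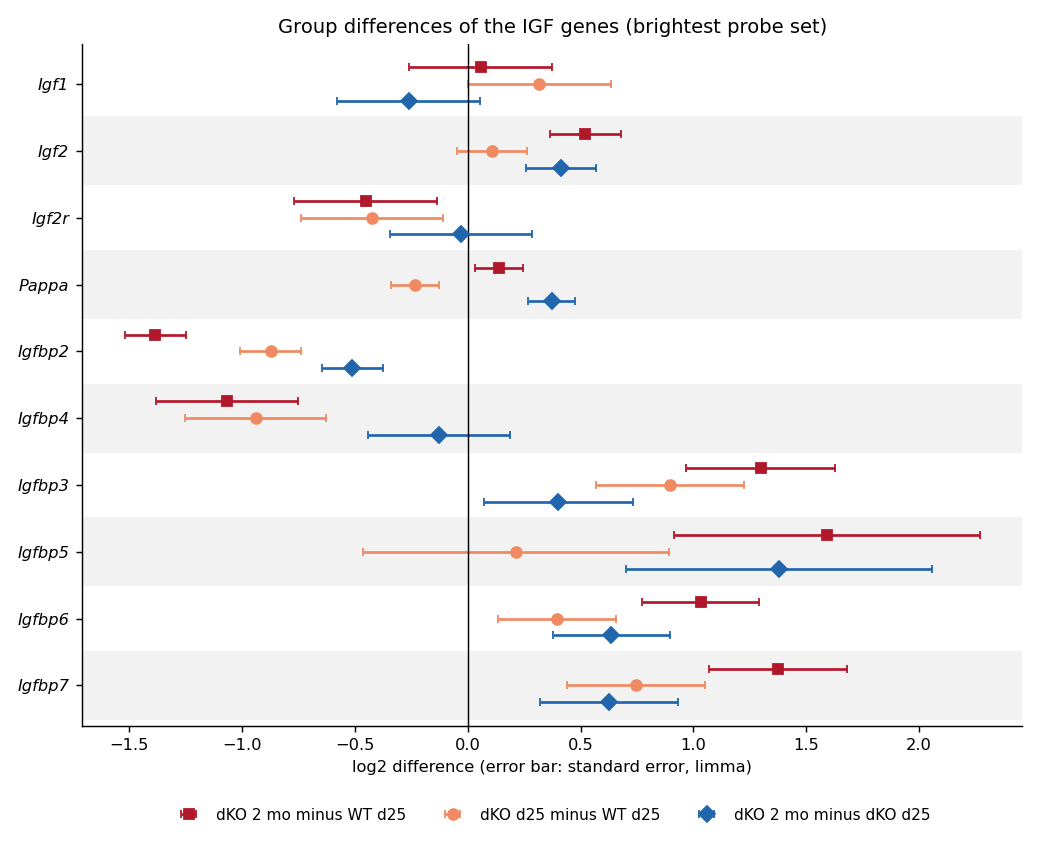
Log2 difference of the brightest probe set of each gene, with squares for dKO at 2 months minus wild type, circles for dKO at day 25 minus wild type and diamonds for dKO at 2 months minus dKO at day 25, and bars for the standard error from limma. Igfbp2 and Igfbp4 lie below 0 against wild type at both ages, Igfbp3 and Igfbp7 lie above 0, and Igfbp5 has the widest error of the 10.

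Igfbp3, the main carrier of IGFs in blood, was dim in these cells and higher in dKO. It read 114 and 58 on the dKO 2-month arrays, 57 and 66 on the dKO day 25 arrays, and 32 and 33 on the wild-type arrays. All 4 dKO arrays lay above both wild-type arrays, and of the dKO arrays only 2-month replicate 1 stood above the rest. Against wild type, Igfbp3 had a log2 difference of 1.30 ± 0.33 (SE, adjusted p = 0.287) in dKO at 2 months and of 0.90 ± 0.33 (adjusted p = 0.600) in dKO at day 25. Without dKO 2-month replicate 1 the 2-month difference was 0.82, and the difference between the dKO ages, 0.40 with all arrays, was -0.08. The other Igfbp3 probe set had the same order, with 52 and 42 in dKO at 2 months, 36 and 35 in dKO at day 25, and 27 and 30 in wild type.

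Igfbp7, the weak IGF binder found in vessel walls and matrix, was highest in dKO at 2 months, intermediate in dKO at day 25 and lowest in wild type. It read 10290 and 6860 on the dKO 2-month arrays, 4411 and 6701 on the dKO day 25 arrays, and 3660 and 2863 on the wild-type arrays. The groups did not overlap, but the nearest arrays of the 2 dKO ages, at 6860 and 6701, were close together. The level was 2.59-fold higher in dKO at 2 months than in wild type, a log2 difference of 1.38 ± 0.31 (SE), adjusted p = 0.259. At day 25 it was 0.75 ± 0.31, adjusted p = 0.628, and between the dKO ages 0.63 ± 0.31, adjusted p = 0.712. With 1 array left out these lay between 0.45 and 1.05 and between 0.33 and 0.93. Of the other Igfbp7 probe sets, 1 ran the same way, with 208 and 167 in dKO at 2 months, 102 and 152 in dKO at day 25, and 95 and 77 in wild type. The third spanned only 135 to 168 over all arrays and differed from wild type by -0.03 on the log2 scale at day 25.

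Igfbp6, a binding protein that prefers IGF2, was higher in dKO at 2 months than in the other groups. It read 914 and 644 on the dKO 2-month arrays, 429 and 567 on the dKO day 25 arrays, and 432 and 325 on the wild-type arrays. Both 2-month arrays lay above the other 4, while dKO at day 25 and wild type overlapped. In dKO at 2 months Igfbp6 exceeded wild type by 1.03 ± 0.26 (SE) on the log2 scale, a 2.04-fold difference with adjusted p = 0.286. It exceeded dKO at day 25 by 0.64 ± 0.26 (adjusted p = 0.712), and dKO at day 25 exceeded wild type by 0.40 ± 0.26 (adjusted p = 0.722). With 1 array left out, the difference between the dKO ages lay between 0.38, without dKO 2-month replicate 1, and 0.89. The day 25 difference was 0.19 without either dKO day 25 replicate 2 or wild-type replicate 2, and up to 0.60 otherwise. Igfbp6 lies on chromosome 15 with 12 protein-coding genes between it and Amhr2, the locus that carries the Cre in all dKO mice. Against wild type, a local effect of that allele therefore cannot be told apart from loss of FOXO, nor at 2 months from age. The 2 dKO ages share the same genotype label, but Foxo1 was lower at 2 months. No other member is on chromosome 15.

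Igfbp5, which binds IGFs and matrix, had the widest spread of the members. It read 24056 and 7374 on the dKO 2-month arrays, 3370 and 7796 on the dKO day 25 arrays, and 4366 and 4479 on the wild-type arrays. A single array, dKO 2-month replicate 1, stood far above the rest, and the dKO day 25 replicates lay on either side of the wild type. In dKO at 2 months Igfbp5 exceeded wild type by 1.59 ± 0.68 (SE) on the log2 scale (adjusted p = 0.409) and dKO at day 25 by 1.38 ± 0.68 (adjusted p = 0.712). Without dKO 2-month replicate 1 these were 0.74 and 0.52, and without replicate 2 they were 2.44 and 2.23. At day 25 it was 0.21 ± 0.68, with the sign resting on 1 array, since it was -0.39 without replicate 2 and 0.82 without replicate 1. The second probe set put the same array on top. It read 861 and 424 in dKO at 2 months, 369 and 377 in dKO at day 25, and 313 and 383 in wild type. Its 2-month log2 differences were smaller, at 0.80 ± 0.35 (SE) from wild type and 0.69 ± 0.35 from dKO at day 25. Both of its dKO day 25 values lay within the wild-type range. Igfbp5 is the next protein-coding gene to Igfbp2 on chromosome 1. On the brightest probe set Igfbp5 differed 3.26-fold between the dKO 2-month arrays, while Igfbp2 differed 1.01-fold.

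**Figure D3:**
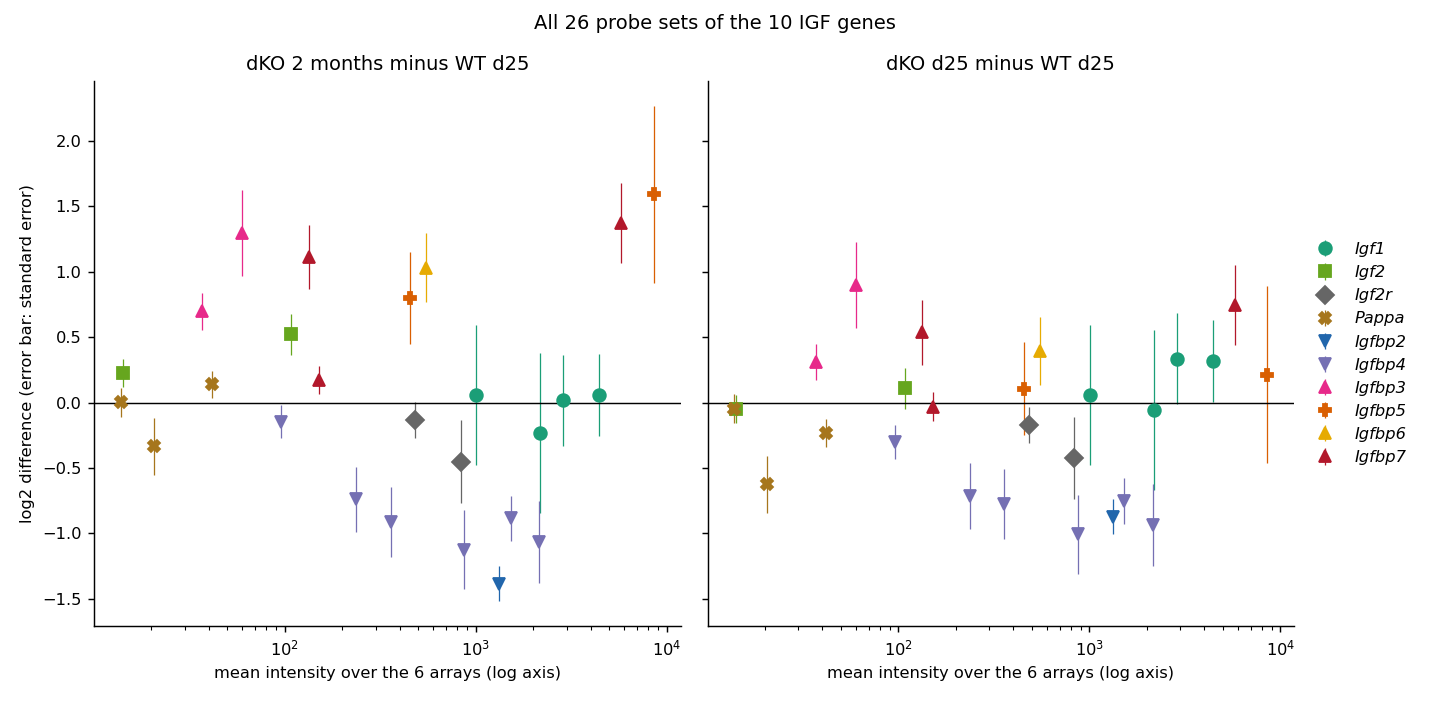
Log2 difference of all 26 probe sets against their mean intensity on a log axis, for dKO at 2 months minus wild type on the left and dKO at day 25 minus wild type on the right, with the standard error as bars. The 6 Igfbp4 probe sets all lie below 0 in both panels, and the smallest of their differences belong to the dimmest.

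The array with the highest Igfbp3, Igfbp5, Igfbp6 and Igfbp7 was also the array with the most RNA of several other cell types. On dKO 2-month replicate 1, 12 of 12 endothelial, 11 of 11 leukocyte and 8 of 8 surface epithelium markers had their highest value, and 11 of 12 oocyte markers their lowest. It also held the highest value of 6 of the 10 members and the lowest of 1, against 32.5% and 30.7% of all genes. Of the other lists, 7 of 14 stromal, 2 of 7 theca, 2 of 10 granulosa and 1 of 2 erythrocyte markers were highest there. Another 2 of the granulosa markers were lowest there. The summed endothelial intensity was 4440 and 2297 in dKO at 2 months, 1510 and 2170 in dKO at day 25, and 1177 and 1452 in wild type. Cdh5, the vascular cadherin, was 318 and 177, 142 and 167, and 82 and 81 in the same order of groups. The summed surface epithelium intensity was 4781 and 1981 in dKO at 2 months, 1634 and 1833 in dKO at day 25, and 1518 and 1268 in wild type, and Upk3b, a uroplakin of mesothelium, ran from 548 to 1988. None of these lists was absent on any array. Stromal markers summed to 52075 and 28783 in dKO at 2 months, 31310 and 38747 in dKO at day 25, and 26036 and 18131 in wild type. Their defining marker Col1a1 did not follow this sum, with 529 and 565, 852 and 848, and 1094 and 521 in the same order. Leukocyte markers summed to 14175 and 4582, 7655 and 4258, and 1576 and 2991 in the same order, with Ptprc between 46 and 468. Theca markers summed to 46969 and 38320, 16325 and 30035, and 21221 and 24282. The steroidogenic enzyme Cyp17a1 was 12804 and 15028, 389 and 5073, and 1275 and 1509, with its highest value on dKO 2-month replicate 2. Both 2-month arrays thus lay above the other arrays for Cyp17a1. Oocyte markers summed to 7660 and 41043, 50701 and 73775, and 35474 and 21634, and the 2 measured erythrocyte markers of 4 to 617 and 417, 380 and 308, and 147 and 149. Several lists also differed between dKO at day 25 and wild type, where Igfbp3 and Igfbp7 were higher in the dKO. There 12 of 12 endothelial, 14 of 14 stromal, 10 of 11 leukocyte and 12 of 12 oocyte markers had higher means in the dKO. The other lists were more mixed, with 6 of 8 surface epithelium, 7 of 10 granulosa, 4 of 7 theca and 1 of 2 erythrocyte markers higher. The part of these cell types in the binding protein values was not tested. Without dKO 2-month replicate 1, the log2 difference of dKO at 2 months from wild type was 1.08 for Igfbp7 and 0.78 for Igfbp6. Replicate 2, which that leaves, also had high Cyp17a1.

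**Figure D4:**
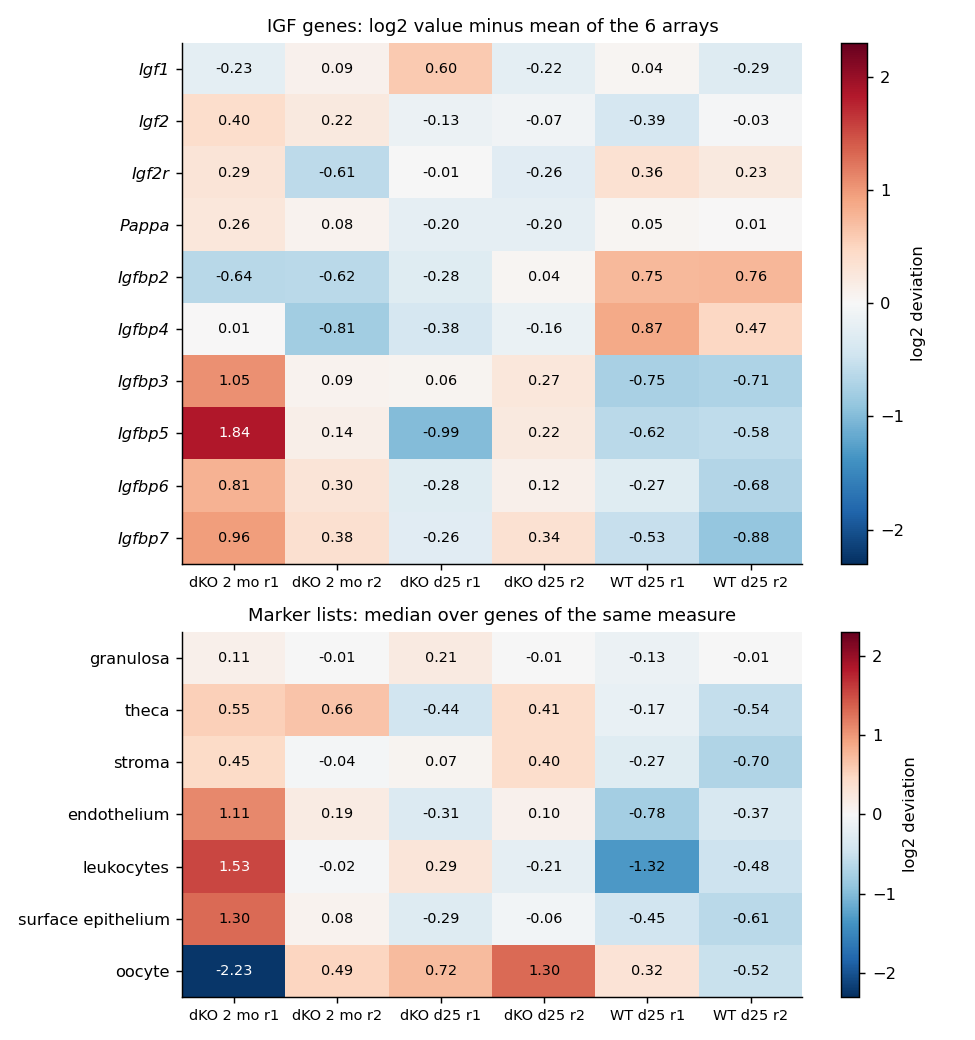
Log2 value minus the mean of the 6 arrays for each IGF gene (upper panel) and the median of the same measure over each list of cell markers (lower panel), with 1 column per array and red for above and blue for below that mean. The dKO 2-month replicate 1 has 1.84 for Igfbp5 and 0.96 for Igfbp7, beside 1.11 for endothelium, 1.53 for leukocytes and 1.30 for surface epithelium, and -2.23 for oocyte markers.

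Counts over the 10 members were set beside those over all genes. For dKO at day 25 against wild type, 2 members, Igfbp2 and Igfbp4, were lower at an unadjusted p under 0.05, where 3.44% of all genes were, and 1, Igfbp3, was higher, where 4.89% were. The groups did not overlap for 4 members that were lower (19.5% of genes) and 2 that were higher (26.4% of genes). The median log2 difference was 0.16 over the members and 0.03 over all genes. The members' median was -0.077 without dKO day 25 replicate 2, 0.021 without dKO day 25 replicate 1 and 0.062 without wild-type replicate 1, so its sign rests on 1 array. For dKO at 2 months against dKO at day 25, Igf2 and Pappa were higher (3.73% of genes) and Igfbp2 was lower (2.91% of genes) at an unadjusted p under 0.05. The groups did not overlap for 4 members that were higher (19.7% of genes) and 1 that was lower (17% of genes). The medians were 0.39 over the members and 0.02 over all genes, and the members' median was 0.10 without dKO 2-month replicate 1. When the 2-month knockout was set against wild type, Igf2, Igfbp3, Igfbp6 and Igfbp7 were higher (9.54% of genes) and Igfbp2 and Igfbp4 lower (5.38% of genes). The groups did not overlap for 6 members that were higher (26.6% of genes) and 2 that were lower (17.3% of genes), and the medians were 0.33 and 0.04. The comparisons share groups, so their counts are not separate evidence, and the members were chosen with results of these data known.

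By Pearson's r of the log2 values over the 6 arrays, the genes most like each of the 6 members with a log2 span of at least 1 were sought among 3097 genes. Kcnt2 (r = 0.996) and Zfp36l2 (r = 0.995) were most like Igfbp2, and Cmtm7 (0.994) and Tcf7l2 (0.980) most like Igfbp4. Esyt1 and Nrp2 (0.997 each) were most like Igfbp3, Gpc3 (0.999) and P2rx7 (0.997) most like Igfbp6, Ets1 (0.995) and Nrp1 (0.989) most like Igfbp7, and Hsd17b2 (0.995) and Pcbp4 (0.992) most like Igfbp5. These values describe 6 arrays only, which include the array that stands apart.

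Of 27 further gene symbols of the IGF axis, 20 matched a symbol in the platform annotation. The others were not looked for under other names and were not analysed here. At an unadjusted p under 0.05 limma had 3 higher and 2 lower in the 2-month knockout than in wild type, 0 higher and 2 lower in dKO at 2 months than in dKO at day 25, and 3 higher and 2 lower in dKO at day 25 than in wild type. Over all genes the shares were 9.54% higher and 5.38% lower, 3.73% and 2.91%, and 4.89% and 3.44% in the same order. None passed the adjusted threshold, and the median log2 difference of the 20 was 0.08, -0.04 and 0.07 in that order. Stc1, a stanniocalcin, belongs to a family that inhibits PAPP-A. It read 2888 and 4778 on the dKO 2-month arrays, 7814 and 2097 on the dKO day 25 arrays, and 166 and 234 on the wild-type arrays. Every dKO array was several times above both wild-type arrays, with a wide spread within dKO at day 25. The log2 difference was 4.35 ± 0.68 (SE) at day 25, a 20.4-fold difference with adjusted p = 0.461, and 4.23 ± 0.68 at 2 months, 18.8-fold with adjusted p = 0.192. Its other probe set was dim, with 32 and 35 in dKO at 2 months, 31 and 28 in dKO at day 25, and 26 and 24 in wild type.

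Stc2, the second stanniocalcin, was higher in dKO on a smaller scale, and its 3 probe sets ran the same way. The brightest read 137 and 168 on the dKO 2-month arrays, 132 and 152 on the dKO day 25 arrays, and 110 and 90 on the wild-type arrays, with adjusted p = 0.313 for the 2-month and 0.579 for the day 25 knockout against wild type. Htra1, a secreted serine protease that can cut IGFBP5, was very bright, with 20605 and 23003 in dKO at 2 months, 24187 and 20953 in dKO at day 25, and 16805 and 16884 in wild type. Each dKO array lay above both wild-type arrays. The log2 difference was 0.37 ± 0.12 (SE, adjusted p = 0.346) for the 2-month and 0.42 ± 0.12 (adjusted p = 0.554) for the day 25 knockout. Htra4, of the same family, was 19 and 46 in dKO at 2 months and 77 and 179 in dKO at day 25, while the wild-type values of 104 and 35 overlapped both.

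The receptor that both ligands use was lower. Igf1r read 1123 and 1456 on the dKO 2-month arrays, 1828 and 1616 on the dKO day 25 arrays, and 3517 and 3040 on the wild-type arrays. All 5 Igf1r probe sets had lower means in dKO at both ages, with no overlap on 4 of them at day 25 and on all 5 at 2 months. The log2 difference at 2 months was -1.35 ± 0.17 (SE), a 2.56-fold difference with adjusted p = 0.149. Irs2, the adaptor below the receptor, was 87 on both dKO 2-month arrays, 102 and 124 on the dKO day 25 arrays, and 335 and 334 on the wild-type arrays, and its log2 difference between the dKO ages was -0.37 ± 0.12, adjusted p = 0.712. Like Igfbp2, both genes had their lowest values at 2 months on the brightest probe set. For Igf1r the log2 difference between the dKO ages was -0.43 ± 0.17 (SE), adjusted p = 0.712. On 1 dimmer Igf1r probe set the dKO ages overlapped, with 101 and 75 at 2 months and 89 and 80 at day 25. The remaining Igf1r probe sets were lower at 2 months without overlap.

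**Figure D5:**
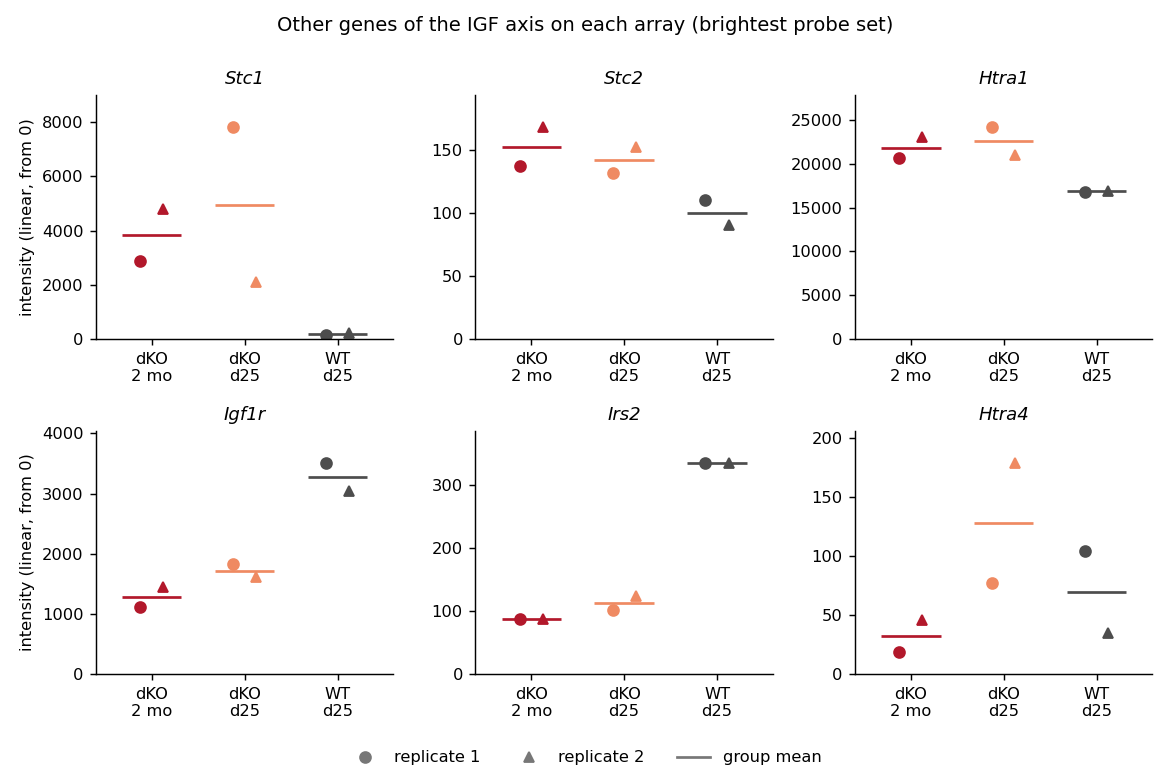
Intensity on a linear axis from 0 for the 6 other IGF axis genes with an unadjusted p under 0.05 in any comparison, with circles for replicate 1, triangles for replicate 2 and a bar for the group mean. Stc1 lies between 2097 and 7814 on the 4 dKO arrays and at 166 and 234 on the wild-type arrays, while Igf1r and Irs2 lie lower on all 4 dKO arrays.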

How the data were processed

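Total RNA of mouse ovarian granulosa cells was biotin-labelled and hybridised to 1 Affymetrix array per sample, per the labels' protocols. The authors deposited 1 intensity per probe set, a whole number on a linear scale. The submitters' processing notes name affy and RMA for these intensities, with no version. The genome build is not given in the sources used here. RMA normalizes the arrays to one another, which can hide a shift shared by most genes.

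From the 45101 probe sets, 64 AFFX controls were left out. Of the rest, 34945 had 1 gene symbol in the platform annotation, 932 several (among them 1 shared by Igf2r and Airn) and 9160 none. Entrez IDs of 18032 of the 18193 genes were in the RefSeq table, and 0 symbols of the genes described were updated. R 4.3.3 and limma 3.58.1 fitted log2(value + 1) of all 6 arrays with a mean per group, 3 residual degrees of freedom and two-sided moderated contrasts. The adjusted p is Benjamini-Hochberg over the 45037 probe sets, with a threshold of 0.05. Precision is limited by having 2 arrays a group. The labels do not state that the 2 arrays of a group are separate animals, and the p-values then reflect only array-to-array spread, possibly technical.

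All members were named. Other axis genes were named where an unadjusted p was under 0.05 in any comparison, and alike genes needed a mean intensity of at least 100. Members, lists and rules were chosen with earlier results of these data known. The fit was tested on simulated data. Same-numbered replicates did not deviate together, with r of 0.06 between the 2 dKO ages, -0.21 between dKO at 2 months and wild type and -0.16 between dKO at day 25 and wild type, so the numbers were not used as pairs. Alternatives were a pseudocount of 16, array centring, quantile normalization, leaving out probe sets under a mean of 50, an intensity trend with a robust prior, fitting only the 4 arrays compared, averaging a gene's probe sets, leaving out cross-hybridizing probe sets, a replicate block and leaving out each array. A block with the wild-type numbers crossed was added after seeing the data.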

Additional observations from a re-analysis of the deposited data

How the results depend on the processing

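In every alternative where passing probe sets were counted, none passed an adjusted p of 0.05 in limma in any of the 3 comparisons. They were not counted when a gene's probe sets were averaged or cross-hybridizing probe sets left out. No member passed in those 2 alternatives. For dKO at day 25 against wild type, the 1 member higher at an unadjusted p under 0.05 became 0 with a pseudocount of 16, with the replicate block and with the crossed block, and 2 with an intensity trend and robust prior. The 2 lower members became 4 with only the 4 arrays compared and 1 with the crossed block. Leaving out 1 array gave 0 to 1 higher, 1 to 4 lower and a member median between -0.077 and 0.17. For dKO at 2 months against dKO at day 25, the 2 higher members became 0 without dim probe sets and 1 with the trend and robust prior or the replicate block. Leaving out 1 array gave 0 to 4 higher, 1 lower and a median between 0.10 and 0.48. When the 2-month knockout was set against wild type, the 2 lower members became 1 with only the 4 arrays compared, and the median became 0.52 without dim probe sets. Leaving out 1 array gave 1 to 6 higher, 1 to 3 lower and a median between 0.29 and 0.42.

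With the mean of all probe sets the sign turned for Igf2r between the dKO ages (0.0061), and for Igf1 (-0.026) and Pappa (-0.064) in the 2-month knockout against wild type. With 1 array left out it turned for Igf1 (-0.095 to 0.73), Igf2 (-0.071 to 0.29) and Igfbp5 (-0.39 to 0.82) at day 25, for Igf1 (-0.67 to 0.15), Igf2r (-0.48 to 0.42), Igfbp3 (-0.079 to 0.88) and Igfbp4 (-0.54 to 0.28) between the dKO ages, and for Igf1 (-0.11 to 0.23) when the 2-month knockout was set against wild type. The cause of these changes was not tested. Same-numbered arrays did not deviate together, so the replicate block carries no pairing from the design. Where 1 array remained in a group, its variance was borrowed from the other groups. Of the 10 members, 9 had a mean intensity of at least 50, and Pappa did not.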
